A study of Mus musculus with 7 samples.

Results

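The glutamate transporters examined here are 6 genes of the solute carrier families, taken from the 25871 mouse genes counted in single nuclei of the primary visual cortex (V1). They were picked by name for what they carry: the vesicular transporters Slc17a6, Slc17a7 and Slc17a8 (VGLUT2, VGLUT1 and VGLUT3) and the plasma-membrane transporters Slc1a1, Slc1a2 and Slc1a3 (EAAC1, GLT-1 and GLAST). Vesicular transporters load cytosolic glutamate into synaptic vesicles with the proton gradient across the vesicle membrane, and their presence marks a neuron that can release glutamate. Plasma-membrane transporters take glutamate back out of the extracellular space by coupling it to the sodium gradient. In cortex VGLUT1 is the main vesicular type of pyramidal neurons, GLT-1 and GLAST are known as the astrocytic carriers that clear the synaptic cleft, and EAAC1 is known as the neuronal carrier. Inside astrocytes glutamine synthetase (Glul) turns glutamate into glutamine, which neurons take up and convert back to glutamate.

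The nuclei are 1 snRNA-Seq sample of V1 from C57BL/6J mice of 6 to 10 weeks, all injected with the PESCA library, an AAV9 pool of barcoded reporters, and sequenced as 10 inDrops libraries in library sets 1 and 2 of 5 each. The same study profiled open chromatin with ATAC-Seq in 6 samples, 2 each of SST, PV and VIP interneuron nuclei, from uninjected mice of 6 to 12 weeks that carried Sst-IRES-Cre, Pv-Cre or Vip-IRES-Cre with the SUN1-2xsfGFP-6xMYC nuclear tag. Those nuclei came from whole cortex and were captured by the tag, so each sample holds whatever cells the Cre line had recombined in. The labels call all animals male, whereas the ATAC-Seq protocol names both sexes, and each ATAC-Seq sample came from 1 mouse. The snRNA-Seq libraries came from 2 injected mice, 5 from each, but no label says that sets 1 and 2 are these mice.

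Of 47348 barcodes, 32335 held more than 200 unique molecular identifiers (UMIs) from mouse genes and were kept as nuclei, 2457 to 3629 per library, with 2496224 to 3041931 UMIs each. No 2 libraries were identical, and 5476 of the 25866 distinct barcode names occurred in more than 1 library. Nuclei were gated with marker genes other than the transporters. A nucleus entered 1 of 7 classes if it held at least 2 UMIs of that class's markers and if these were at least 75% of its class marker UMIs. In all 18294 nuclei (56.6%) entered a class: 12696 excitatory, 1763 interneuron, 1608 astrocyte, 1194 oligodendrocyte, 207 oligodendrocyte precursor (OPC), 346 microglia and 480 vascular. Of the excitatory nuclei 3260 entered a layer, and 1131 interneurons entered a subtype. Markers left out of the gates were highest in their own gate: Nrgn and Camk2a summed to 25.5 UMIs per 10000 in excitatory nuclei, Nxph1 and Kcnip1 to 5.66 in interneurons, and Clu and Apoe to 95.8 in astrocytes. Exceptions were Apoe, at 69.2 in microglia, and Nxph1, at 6.14 in OPCs against 3.77 in interneurons. A layer or subtype gate needed at least 2 UMIs of its own marker list and more than of any other such list. No marker of a layer or subtype was left out as a check, so these gates are named for their lists only. The VIP list also held Calb2 and Htr3a, so a nucleus in the VIP gate need not hold a Vip UMI. Levels below are UMIs per 10000 mouse-gene UMIs, with 95% exact Poisson intervals that cover counting error only. The libraries were deposited as 1 sample, so there is no test between gates, and the spread over the 10 libraries holds technical spread and any difference between the 2 mice. A ratio between gates is given with its exact interval, again for counting error, and with the number of libraries that share its direction. UMIs were counted at 3′ ends, so levels of different genes are not ranked against each other.

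The 4 promoter windows shown here were chosen because the ATAC-Seq data below bear on the start sites of these genes, from which they run 250 bases before to 50 bases after. Capitals mark GGGCGG or its reverse complement CCGCCC, the core of a GC box, searched on both strands.
Slc17a7, chr7:45163671-45163970, + strand: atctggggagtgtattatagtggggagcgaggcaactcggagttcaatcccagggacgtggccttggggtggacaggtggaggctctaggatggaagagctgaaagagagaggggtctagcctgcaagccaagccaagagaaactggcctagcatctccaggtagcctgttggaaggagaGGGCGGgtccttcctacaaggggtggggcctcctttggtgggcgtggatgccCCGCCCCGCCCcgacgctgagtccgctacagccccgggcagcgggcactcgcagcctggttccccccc
Slc17a8, chr10:89621200-89621499, − strand: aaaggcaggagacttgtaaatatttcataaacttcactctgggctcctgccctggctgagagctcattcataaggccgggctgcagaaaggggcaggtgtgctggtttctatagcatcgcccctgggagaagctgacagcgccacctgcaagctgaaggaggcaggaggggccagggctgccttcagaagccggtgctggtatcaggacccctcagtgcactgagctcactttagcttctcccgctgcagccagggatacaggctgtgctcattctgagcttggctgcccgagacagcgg
Slc1a1, chr19:28834885-28835184, + strand: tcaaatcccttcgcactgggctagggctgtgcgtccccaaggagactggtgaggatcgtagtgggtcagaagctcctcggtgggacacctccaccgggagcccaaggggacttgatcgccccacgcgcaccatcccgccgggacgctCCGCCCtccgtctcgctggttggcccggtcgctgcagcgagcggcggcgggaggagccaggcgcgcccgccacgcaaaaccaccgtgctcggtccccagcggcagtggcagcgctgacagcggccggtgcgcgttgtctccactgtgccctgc
Slc1a2, chr2:102658409-102658708, + strand: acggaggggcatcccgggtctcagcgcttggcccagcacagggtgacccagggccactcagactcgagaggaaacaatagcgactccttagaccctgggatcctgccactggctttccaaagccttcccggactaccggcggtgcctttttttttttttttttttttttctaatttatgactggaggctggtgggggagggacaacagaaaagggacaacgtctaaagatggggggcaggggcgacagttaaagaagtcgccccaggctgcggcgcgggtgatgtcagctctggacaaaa
The first 3 are RefSeq promoters on GRCm38.p6, and the last was read from that genome at the first GENCODE start site of Slc1a2, since the RefSeq promoter of that gene lies further inside it and meets no ATAC-Seq region. The Slc17a7 window held 3 GC boxes, 2 of them overlapping in one run, with 63.7% GC and 13 CpG. The Slc1a1 window held 1 GC box and was the richest in GC of the 4, at 70.3% with 32 CpG. Neither the Slc17a8 window (58.0% GC, 7 CpG) nor the Slc1a2 window (55.7% GC, 14 CpG) held one. Among 32851 mouse promoters of the same length, 35.7% held the motif, the median GC content was 52.7% and the median number of CpG was 7.

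Slc17a7 (ENSMUSG00000070570.5, chr7:45163949-45176142) was higher in excitatory nuclei than in interneurons in every library. Its level there was 4.52 (4.41–4.63), with libraries from 4.15 to 4.88 and a median of 4.51. In interneurons it was 0.293 (0.221–0.381), with libraries from 0 to 0.697, so the library ranges did not overlap. The ratio was 15.4 (11.8–20.5), with excitatory nuclei higher in 10 of 10 libraries. A Slc17a7 UMI was found in 33.5% of excitatory nuclei (exact binomial interval 32.7–34.3%) and 2.44% of interneurons (1.77–3.27%), at median depths of 1031 and 966 UMIs. After each nucleus was thinned to 300 UMIs these shares were 12.2% and 1.09%. The next class in order was the oligodendrocyte gate at 1.18, followed by astrocytes at 0.907 and microglia at 0.810, and no neighbours among these 3 differed beyond their intervals.

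Barcodes with 200 or fewer UMIs were used as the background for these low values. There were 15013 of them, with a median of 129 UMIs, and 2503 (16.7%) met a class gate. How much of their RNA is free and how much comes from small nuclei was not tested. Slc17a7 stood at 2.97 in these barcodes. In interneurons, astrocytes, oligodendrocytes and microglia it was at 9.88%, 30.6%, 39.7% and 27.3% of that level, in OPCs at 14.1% and in vascular nuclei at 13.2%. Nrgn and Camk2a, 2 excitatory neuron genes, stood at 18.2%, 32.1%, 36.7% and 36.2% of theirs in the first 4 gates, at 42.8% in OPCs and at 8.28% in vascular nuclei. Slc17a7 was thus below its low-barcode level in all 6 classes other than excitatory nuclei, and whether those counts are expression was not tested. Low barcodes that met no class gate held Slc17a7 at 3.19, and the level of free RNA alone was not measured. The share of free RNA estimated from markers of other classes was 3.97% in excitatory nuclei, 2.20% in interneurons and 2.61% in vascular nuclei. It was 13.1% in astrocytes, 14.2% in oligodendrocytes, 27.0% in OPCs and 8.31% in microglia. The part of free RNA in the Slc17a7 counts was not tested.

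Slc17a6 (ENSMUSG00000030500.6, chr7:51622006-51671119) was also highest in excitatory nuclei, at 1.03 (0.976–1.08), with libraries from 0.843 to 1.28. In interneurons 19 UMIs gave 0.101 (0.0609–0.158), and no library of one class reached the other. The ratio was 10.1 (6.48–16.9), again in 10 of 10 libraries. Slc17a8 (ENSMUSG00000019935.16, chr10:89574020-89621253), the vesicular type known from small sets of neurons that release another transmitter as well, was sparse everywhere. It reached 0.241 (0.216–0.268) in excitatory nuclei and 0.170 (0.117–0.241) in interneurons, a ratio of 1.41 (0.983–2.10) with overlapping libraries. Low barcodes held Slc17a8 at 0.126 from 23 UMIs, within the interneuron interval. No Slc17a8 UMI was found in OPCs, where a count of 0, taken as up to 3 counts, allows a level of up to 0.418. Counted together, 3 of the 6 transporters (Slc17a6, Slc17a7 and Slc1a2) were more than 2-fold higher in excitatory nuclei than in interneurons and none was more than 2-fold lower. Of all genes with at least 50 UMIs over both gates, 9.83% were 2-fold higher, 4.11% without overlap of libraries, and 6.48% were 2-fold lower.

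**Figure D1:**
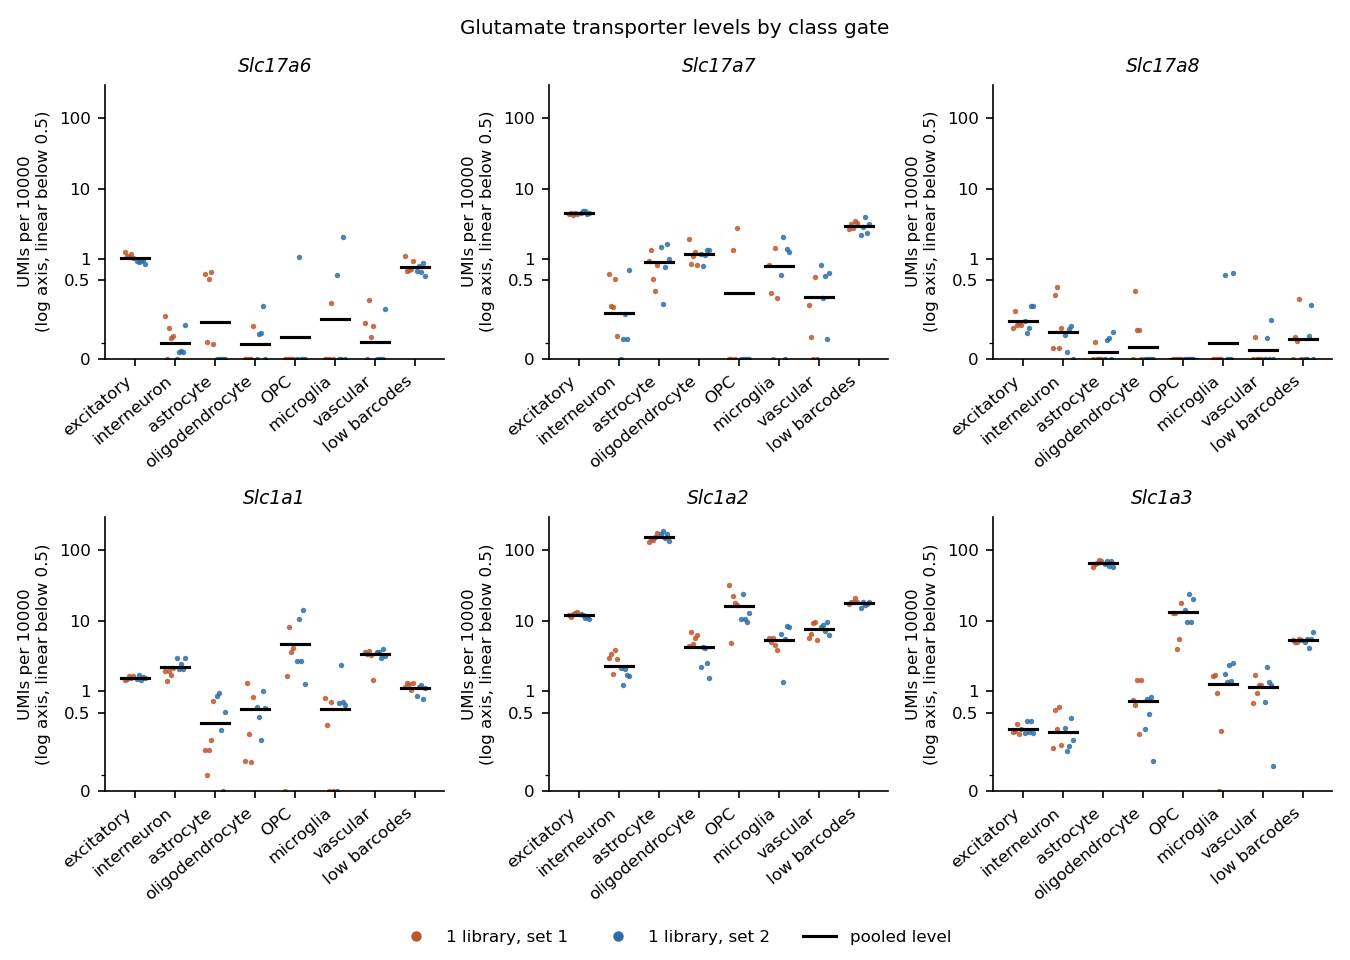
Level of each transporter in the 7 class gates and in barcodes of 200 or fewer UMIs (x axis), as UMIs per 10000 on a log axis that is linear below 0.5; points are single libraries of set 1 or 2 and black bars the pooled level. Slc17a7 and Slc17a6 sit highest in excitatory nuclei, and all 10 astrocyte libraries of Slc1a2 (134 to 187) and Slc1a3 (57.7 to 72.5) lie above every library of the other classes.

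Slc1a2 (ENSMUSG00000005089.15, chr2:102658659-102790784) and Slc1a3 (ENSMUSG00000005360.14, chr15:8634124-8710764) were highest in astrocytes. Slc1a2 reached 157 (154–159) in the astrocyte gate, with libraries from 134 to 187 and a median of 154. Slc1a3 reached 65.9 (64.2–67.6), with libraries from 57.7 to 72.5 and a median of 65.8. Astrocyte nuclei with a UMI made up 83.1% for Slc1a2 and 77.2% for Slc1a3, or 78.4% and 68.6% after thinning. Against excitatory nuclei Slc1a2 was 13.0 times (12.8–13.3) and Slc1a3 166 times (153–182) higher, in 10 of 10 libraries each and with no overlap. The other 4 transporters were more than 2-fold lower in astrocytes. For scale, 15.2% of genes were 2-fold higher in astrocytes than in excitatory nuclei, 7.5% without overlap, and 29.6% were 2-fold lower.

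OPCs were the second class for both genes, with Slc1a2 at 16.2 (13.4–19.4) and libraries from 4.90 to 31.8. Excitatory nuclei followed for Slc1a2 at 12.0 (11.8–12.2), with libraries from 10.8 to 13.3, and OPCs exceeded them 1.35 times (1.11–1.62) with overlapping libraries. Low barcodes held Slc1a2 at 18.2 (17.6–18.8), so OPCs stood at 88.9% and excitatory nuclei at 66.1% of that level. With the estimated free RNA subtracted (27.0% in OPCs) Slc1a2 was 15.4 in OPCs and 11.8 in excitatory nuclei. A Slc1a2 UMI was found in 55.9% of excitatory nuclei and in 12.0% of low barcodes, at median depths of 1031 and 129 UMIs. Because excitatory nuclei are many, they held 39.0% of all Slc1a2 UMIs in kept nuclei, against 31.7% in the astrocyte gate. Interneurons held 2.26 (2.05–2.49), with libraries from 1.22 to 3.83, so excitatory nuclei were 5.31 times (4.82–5.86) higher in 10 of 10 libraries with no overlap. Slc1a3 was near 0.4 in both neuronal classes, at 0.396 in excitatory nuclei and 0.373 in interneurons (ratio 1.06, 0.827–1.38). These 2 values were 7.37% and 6.95% of the 5.37 seen in low barcodes, and Clu with Apoe stood at 15.8% and 24.2% of theirs.

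The proportion of the 2 astrocytic genes differed between gates. There were 2.38 Slc1a2 UMIs for each Slc1a3 UMI in astrocytes (2.31–2.45) and 3.39 (3.15–3.64) in low barcodes. In excitatory nuclei the proportion was 30.4 (28.0–33.1), in interneurons 6.07 (4.71–7.93) and in L6 nuclei 54.7 (40.1–76.8). Low barcodes that met no class gate held Slc1a2 at 12.3, close to the excitatory 12.0, and Slc1a3 at 1.60.

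OPCs stood out among the other glia. Their Slc1a3 level was 13.5 (10.97–16.5), with libraries from 4.03 to 23.9, which was 34.2 times (27.3–42.5) the excitatory level in 10 of 10 libraries. Astrocytes exceeded them 4.87 times (3.98–6.01) for Slc1a3 and 9.69 times (8.08–11.7) for Slc1a2, also in 10 of 10 libraries and without overlap. Of all genes 22.0% were 2-fold higher in astrocytes than in OPCs, 5.58% without overlap, and 12.4% were lower. OPCs thus held only 1.20 Slc1a2 UMIs (0.905–1.58) per Slc1a3 UMI. The OPC gate holds 207 nuclei of a median 298 UMIs, and Clu and Apoe stood at 17.7 in it, so astrocyte RNA moved with this result and its part was not tested.

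Slc1a1 (ENSMUSG00000024935.11, chr19:28835049-28913960) had a different order of classes from the other 5. It was highest in OPCs at 4.74 (3.28–6.63), from 34 UMIs and with libraries from 0 to 14.3. Vascular nuclei followed at 3.36 (2.96–3.81), with libraries from 1.44 to 4.04, then interneurons at 2.21 (2.00–2.43), with libraries from 1.41 to 3.00, and excitatory nuclei at 1.55 (1.49–1.62), with libraries from 1.43 to 1.70. OPCs and vascular nuclei did not differ beyond their interval (ratio 1.41, 0.955–2.02), whereas vascular nuclei exceeded interneurons (1.52, 1.29–1.78) and interneurons exceeded excitatory nuclei (1.42, 1.28–1.58) with overlapping libraries. Astrocytes were lowest at 0.432, below the 1.12 of low barcodes. OPCs were 3.06 times (2.11–4.28) above excitatory nuclei in 8 of 10 libraries, and vascular nuclei 2.17 times (1.89–2.47) in 9 of 10. In each of these comparisons 2 of 6 transporters, Slc1a1 and Slc1a3, were more than 2-fold higher, where 17.6% of genes were higher and 38.7% lower for OPCs, and 18.8% and 40.8% for vascular nuclei. The 3 vesicular transporters had lower levels in both gates than in excitatory nuclei, but in OPCs they rested on 1 Slc17a6, 3 Slc17a7 and 0 Slc17a8 UMIs, and the interval for Slc17a8 reached 2.15 times the excitatory level. With at least 90% of class marker UMIs required in place of 75%, the vascular gate became the highest and OPCs were 1.86 times above excitatory nuclei.

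Across the cortical layers Slc17a6 was highest in L4, at 2.28 (1.93–2.68), with libraries from 0.659 to 3.96 and a median of 2.03. L2/3 held 1.11 (0.944–1.30) and L5 IT, the intratelencephalic cells of layer 5, held 1.06 (0.843–1.32), and these 2 did not differ beyond their interval. In L5 PT, the pyramidal tract cells, it was 0.283 (0.173–0.437), in L6 0.254 (0.174–0.358) and in L6b 0.125 from 2 UMIs. L4 exceeded L6 by 8.99 times (6.10–13.6) in 10 of 10 libraries without overlap, and 19.9% of L4 nuclei against 2.41% of L6 nuclei had a Slc17a6 UMI, at median depths of 1086.5 and 1345 UMIs. Low barcodes held Slc17a6 at 0.775, above L5 PT, L6 and L6b and below L4. With the estimated free RNA subtracted Slc17a6 was 2.33 in L4 and 0.235 in L6. Of all genes 4.35% were 2-fold higher in L4 than in L6, 1.18% without overlap, and 4.53% were lower. Among 5 transporters tested only Slc17a6 was 2-fold higher in L4, and none was 2-fold lower. L4 exceeded L2/3 by 2.06 times (1.63–2.59) in 8 of 10 libraries with overlapping ranges, and by less than 2-fold in 7 of 19 alternative settings.

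Slc17a7 ran the other way between L4 and L6. It was highest in L6 at 5.97 (5.55–6.41), with libraries from 4.50 to 7.30, then L5 IT at 5.25 (4.74–5.79), L6b at 4.26, L4 at 3.99 (3.51–4.51), L2/3 at 3.74 (3.43–4.07) and L5 PT at 2.90 (2.52–3.33). L6 exceeded L5 PT by 2.06 times (1.76–2.41) in 10 of 10 libraries without overlap. The ratio was less than 2-fold in 4 of 19 alternative settings, with the lowest at 1.56 when at least 1 marker UMI was required. Low barcodes held Slc17a7 at 2.97, about the L5 PT level, and with the estimated free RNA subtracted the ratio was 2.10. Between these 2 layers 3.24% of genes were 2-fold higher in L6, 0.701% without overlap, and 4.99% were lower. L6b, L4 and L2/3 were neighbours that did not differ beyond their intervals. The number of Slc17a7 UMIs per Slc17a6 UMI was 1.75 (1.42–2.16) in L4, 3.37 in L2/3 and 4.94 in L5 IT, against 3.83 in low barcodes. It was 10.3 in L5 PT, 23.5 (16.5–34.7) in L6 and 34.0 (9.06–286) in L6b, where Slc17a6 lay below its low-barcode level.

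**Figure D2:**
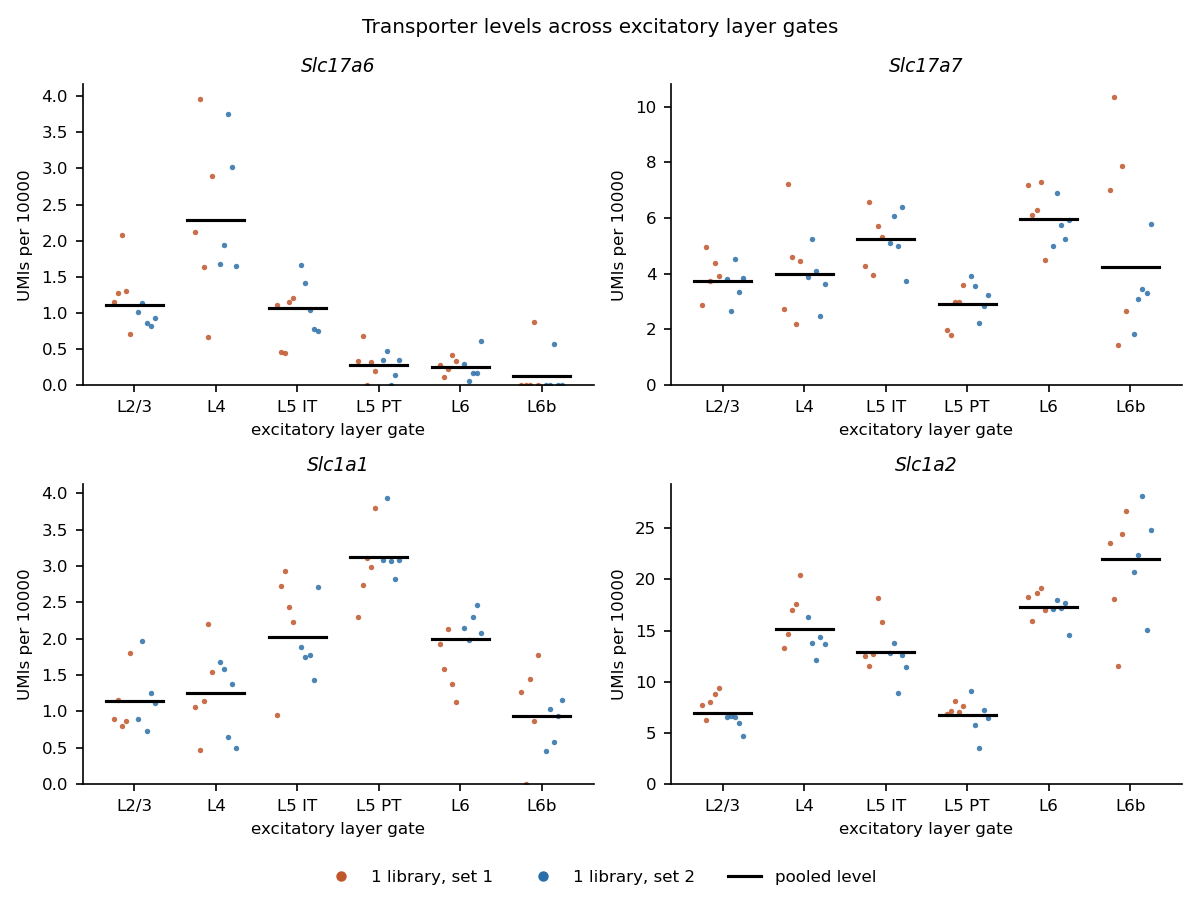
Levels of Slc17a6, Slc17a7, Slc1a1 and Slc1a2 (UMIs per 10000, linear axes that start at 0) in 6 excitatory layer gates; points are single libraries and black bars the pooled level. Slc17a6 peaks in L4 (2.28), Slc1a1 in L5 PT (3.13), and Slc1a2 is low in L2/3 and L5 PT (6.95 and 6.73) and higher in L4, L5 IT, L6 and L6b.

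The plasma-membrane transporters also differed by layer. Slc1a2 was highest in L6b at 22.0 (19.7–24.4), with libraries from 11.6 to 28.1, and in L6 at 17.4 (16.6–18.1), with libraries from 14.6 to 19.2. L4 held 15.2 (14.3–16.2) and L5 IT 13.0 (12.2–13.8). L2/3 at 6.95 (6.52–7.39) and L5 PT at 6.73 (6.14–7.37) were lowest and did not differ from each other. L6 exceeded L2/3 by 2.50 times (2.32–2.69) and L5 PT by 2.58 times (2.33–2.85), L4 exceeded L2/3 by 2.19 times (2.00–2.39) and L6b exceeded L2/3 by 3.16 times (2.79–3.57), each in 10 of 10 libraries without overlap. Clu and Apoe summed to 0.983 in L5 IT, 0.985 in L2/3, 1.12 in L5 PT, 1.17 in L4, 1.55 in L6 and 2.13 in L6b. Slc1a3 was between 0.188 and 0.409 in the 6 layers. Low barcodes held Slc1a2 at 18.2, above every layer but L6b. Those that met no class gate held it at 12.3, below L5 IT, L4, L6 and L6b. With the estimated free RNA subtracted Slc1a2 was 17.3 in L6, 15.1 in L4, 6.48 in L2/3 and 6.44 in L5 PT. The part of astrocyte RNA in these levels was not tested. Against L2/3, 3.28% of genes were 2-fold higher in L6 (1.31% without overlap) and 5.71% lower. The same shares were 1.61% (0.232%) and 3.3% in L4, and 4.24% (0.311%) and 11.9% in L6b.

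Slc1a1 was highest in L5 PT at 3.13 (2.73–3.57), with libraries from 2.29 to 3.94. L5 IT held 2.02 (1.71–2.37) and L6 1.99 (1.75–2.25), which did not differ from each other, and L4, L2/3 and L6b held 1.25, 1.14 and 0.939. L5 PT exceeded L2/3 by 2.75 times (2.24–3.39) in 10 of 10 libraries without overlap. In that comparison Slc1a1 was the only transporter of 5 tested that was 2-fold higher and Slc17a6 the only one lower, where 3.72% of all genes were higher, 0.774% without overlap, and 4.37% lower. Slc1a3 showed no order of layers beyond its intervals. The L5 NP gate held only 43 nuclei, and interneuron markers left out of the gates stood at 5.87 in it, so its values are not ranked here.

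The layers also differed in virus. Mean viral UMIs per nucleus, counted with PCR-enriched viral libraries included, were 12.1 in L4, 17.9 in L6, 20.1 in L5 IT, 32.8 in L2/3, 41.3 in L5 PT and 41.3 in L6b. Within the excitatory gate Slc17a6 was 1.45 (1.25–1.68) in the 1453 nuclei with 0 viral UMIs and 0.821 (0.741–0.908) in the 3133 with at least 20. Slc1a2 was 14.3 (13.6–15.0) and 9.61 (9.33–9.90) in the same nuclei, whose median depths were 790 and 1325 UMIs. Slc1a1 moved the other way, from 1.25 (1.06–1.46) to 1.74 (1.62–1.86). The part of viral load in the layer differences was not tested.

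Among interneurons Slc1a2 was highest in the VIP gate. It held 6.19 (4.95–7.65) in 166 nuclei, with libraries from 2.21 to 10.1 and a median of 7.11. The CNR1 gate held 2.71 (1.90–3.76), the NPY gate 2.61 (2.07–3.26), the SST gate 1.47 (1.13–1.87) and the PV gate 0.935 (0.626–1.34). VIP exceeded PV by 6.62 times (4.30–10.5) in 10 of 10 libraries and SST by 4.23 times (3.02–5.95) in 9 of 10, though the library ranges overlapped. SST and PV did not differ beyond their interval (1.57, 0.994–2.52). In VIP nuclei Nrgn and Camk2a stood at 5.18 and Clu and Apoe at 3.60, against 3.19 and 1.06 in PV nuclei and 3.60 and 2.72 in SST nuclei. Slc17a7 was at 0.360 (0.117–0.840) in VIP nuclei and 0.226 (0.0907–0.465) in PV nuclei, from 5 and 7 UMIs. Low barcodes held Slc1a2 at 18.2 and Clu with Apoe at 8.03, above all 5 subtypes for both. The part of these other cells' RNA in the VIP level was not tested.

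Slc1a1 was lower in VIP than in PV nuclei, unlike Slc1a2. It was 2.77 (2.22–3.42) in PV, 2.51 (1.98–3.15) in NPY and 2.49 (2.04–3.01) in SST nuclei, which did not differ from each other, and 1.22 (0.713–1.96) in VIP and 1.21 (0.689–1.96) in CNR1 nuclei. VIP nuclei held 0.442 times (0.246–0.749) the PV level and were above it in 2 of 10 libraries. In library set 1 the levels were 1.53 and 2.30, a ratio of 0.666. The difference was less than 2-fold in 4 of 19 alternative settings. Slc1a1 and Slc1a2 were the only transporters with enough UMIs to be tested between VIP and PV, where 9.07% of genes were 2-fold higher and 15.6% lower, and between VIP and SST, where 5.67% and 9.72% were.

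Slc17a8 was higher in the CNR1 gate than in the other subtypes, on few UMIs. The list of that gate is Cnr1 and Sncg, and a nucleus in it may hold UMIs of only 1 of them. There 14 UMIs in 106 nuclei gave 1.06 (0.577–1.77), found in 7 nuclei and at most 5 in 1 nucleus, with 5 libraries at 0 and the highest at 4.44. The NPY gate held 0.165 from 5 UMIs, the SST gate 0.140 from 6, and the VIP and PV gates 1 UMI each. Low barcodes held 0.126, near the NPY and SST levels and above those of VIP and PV. The ratio of CNR1 to NPY nuclei was 6.38 (2.17–22.6), from fewer UMIs than the minimum of 50 set for counting a gene, so it is given as a value only. The CNR1 gate held 2.23% of all Slc17a8 UMIs in kept nuclei and excitatory nuclei 55.7%, and the 43 nuclei of the L5 NP gate held 1.47 from 7 UMIs. Slc17a6 and Slc17a7 stayed at 0.360 or below in every subtype, and no Slc17a6 UMI was seen in VIP or CNR1 nuclei, where 3 counts would be 0.216 and 0.226.

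**Figure D3:**
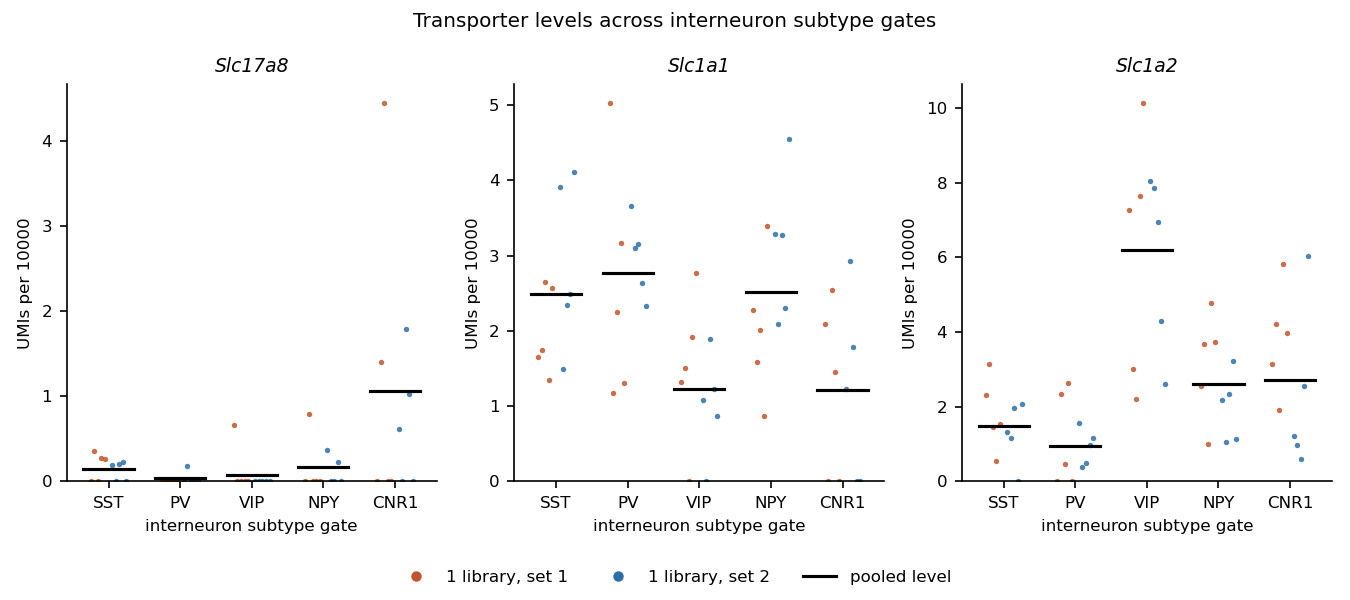
Levels of Slc17a8, Slc1a1 and Slc1a2 (UMIs per 10000, linear axes that start at 0) in 5 interneuron subtype gates; points are single libraries and black bars the pooled level. Slc17a8 is highest in CNR1 nuclei (1.06) with 5 of 10 libraries at 0, and VIP nuclei have the highest Slc1a2 (6.19) with low Slc1a1 (1.22).

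In library sets 1 and 2 the highest class was the pooled one for each transporter but Slc17a8. Its highest class was interneurons in set 1 (0.236, against 0.229 in excitatory nuclei). In set 2 it was microglia (0.270 from 2 UMIs, against 0.252 in excitatory nuclei). Some other values are given for set 1 and then set 2. Slc1a2 in astrocytes was 151 and 165, Slc17a6 in excitatory nuclei 1.14 and 0.923, Slc17a6 in L4 2.21 and 2.34 against 0.277 and 0.240 in L6, and Slc1a2 in VIP nuclei 6.13 and 6.24 against 1.10 and 0.868 in PV nuclei. Slc1a2 was 2.95 in set 1 and 1.75 in set 2 in interneurons, and 5.56 and 3.00 in oligodendrocytes.

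Other genes of glutamate handling were followed as a list of 19 enzymes and carriers. Between astrocytes and excitatory nuclei 16 were tested, of which 8 were 2-fold higher and 5 lower in astrocytes, where 15.2% of all genes were higher and 29.6% lower, with a median log2 ratio of 1.04 against −0.38 over all genes. Slc38a3, a glutamine exporter of astrocytes, was 240 times (169–352) higher, Glul 27.0 times (25.3–28.8), the cystine/glutamate exchanger Slc7a11 18.9 times (16.4–21.8), glutamate dehydrogenase Glud1 13.3 times (12.4–14.4) and the neutral amino acid carrier Slc1a4 8.49 times (7.53–9.55). The 5 lower ones lay between 0.0774 and 0.463 times the excitatory level. The lowest was Slc1a6, a further plasma-membrane glutamate transporter named here after its value was seen, at 0.0774 times (0.00195–0.436) from 1 astrocyte UMI. Between excitatory nuclei and interneurons 15 were tested and 3 were at least 2-fold lower in excitatory nuclei, where 6.48% of all genes were, with a median log2 ratio of −0.40 against 0.01 over all genes. The lower ones were the glutamine importer Slc38a1 at 0.372 times, Slc1a4 at 0.446 times and Aldh5a1, an enzyme of GABA breakdown, at 0.427 times.

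The genes whose levels ran most like each transporter were found over 16 gates (classes other than the pooled neurons, layers and subtypes of at least 50 nuclei) among 8043 genes, by Pearson correlation of log2(level + 0.05), given as a description. All gates share libraries and barcodes' free RNA. Slc17a7 ran with Arc (0.961), Arpp19 (0.960), Baiap2 (0.946), Stx1a (0.943) and Dlg1 (0.939). Slc1a3 ran with Gpr37l1 (0.964), Col3a1 (0.942), Acsbg1 (0.926), Col1a1 (0.922) and Chrdl1 (0.914). Slc17a6 ran with Rgs4 (0.885), Bdnf (0.875), Glt8d2 (0.871), Spsb3 (0.853) and Gpr26 (0.849). Lower values were found for Slc17a8, led by Cmas (0.856) on 149 UMIs, Slc1a1, led by Pcsk7 (0.824), and Slc1a2, led by Fxyd1 (0.820).

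Open chromatin at the transporter genes was then compared between SST, PV and VIP interneuron nuclei. The 6 samples held 1801883 to 2256073 reads in 323369 reference regions. Reads around the genes for the labels were highest in the matching samples: regions at Sst held 52.5 and 56.3 CPM (reads scaled to a common total) in the SST samples against 23.7 to 34.4 elsewhere, those at Pvalb 45.8 and 53.8 in PV against 23.8 to 28.8, and those at Vip 22.3 and 26.4 in VIP against 3.99 to 5.25. Regions at Neurod6, an excitatory neuron gene, held 5.81 to 29.0, with the PV samples highest. Replicates correlated at 0.896 for SST, 0.932 for PV and 0.946 for VIP (Pearson, log2 CPM).

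Of 101 regions that overlap a transporter gene or lie within 10 kb of it, 11 had enough reads to be tested: 3 each for Slc17a7, Slc1a2 and Slc1a3, 1 each for Slc17a8 and Slc1a1, and none of 5 for Slc17a6. No peak was called at any Slc17a6 region in any of the 6 samples. The region at the Slc17a7 start site, whose GC boxes are shown above, likewise held no peak in any sample and was not tested. The 3 tested Slc17a7 regions are flanking ones, and that at chr7:45154015-45154786 covers the start sites of Aldh16a1 and Pih1d1, so it cannot be assigned to Slc17a7. The regions with the most reads were the main start region of Slc1a2 and the start region of Slc1a1. Both held a peak in all 6 samples, with −log10 q of 73.5 to 97.3 and of 55.5 to 101. The region at the start sites of Aldh16a1 and Pih1d1 also held a peak in all 6, with −log10 q of 43.0 to 88.5.

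The Slc1a1 start region (chr19:28834707-28835510, around the window printed above) was more open in VIP nuclei. It held 236 and 243 reads in VIP, 97 and 88 in PV, and 88 and 190 in SST samples. Both VIP samples lay above all others, and the 2 SST samples differed from each other by more than the 2 PV samples. The log2 difference of PV against VIP was −1.17 (SE 0.25, adjusted p = 0.00119, edgeR quasi-likelihood test with Benjamini-Hochberg adjustment over 40338 regions). SST against VIP gave −0.75 (SE 0.25, adjusted p = 0.0221 by the same edgeR test), which without SST replicate 1 was −0.39 with an adjusted p of 0.093 in edgeR, and without VIP replicate 1 was −0.78 with 0.0661. A smaller share of nuclei with an open region and a less open region in each nucleus cannot be told apart in these samples.

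An intron region of Slc1a3 (chr15:8663351-8664270, 46139 bases from the nearest start site) held fewer reads in the SST samples. It held 3 and 3 reads in SST, 20 and 15 in PV, and 20 and 21 in VIP samples, so SST did not overlap the others. The log2 difference was −2.63 against PV (SE 0.56, adjusted p = 0.00947, edgeR) and −2.66 against VIP (SE 0.55, adjusted p = 0.00109, edgeR). Without PV replicate 1 the first of these had an adjusted p of 0.0697 in edgeR. An intron region of Slc1a2 (chr2:102730512-102731365, 24074 bases from the nearest start site) held 13 and 16 reads in VIP, 5 and 4 in PV, and 2 and 3 in SST samples. It was lower in SST than VIP (log2 −2.42, SE 0.60, adjusted p = 0.00423, edgeR) and in PV than VIP (−1.46, SE 0.53, adjusted p = 0.0304, edgeR), and the second call was lost in 4 of 6 leave-one-out fits, those without a PV or a VIP replicate. The first was lost without VIP replicate 2 (adjusted p = 0.107, edgeR). The Slc1a2 intron region passed the filter on reads through the VIP samples alone and the Slc1a3 one through PV and VIP, the groups in which they are high, so these calls are no support for a difference.

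At the Slc17a8 start site (chr10:89620887-89621747) SST samples held 11 and 16 reads, PV 6 and 2, and VIP 4 and 1. SST lay above the others, by log2 2.42 over VIP (SE 0.67, adjusted p = 0.00862, edgeR), a call lost without VIP replicate 2 (adjusted p = 0.192, edgeR) or SST replicate 2 (0.117). Against PV it was 1.59 (SE 0.61, adjusted p = 0.115, edgeR). This region passed the filter on reads through the SST samples alone, so it had to be higher there and its call is no support for a difference. The main Slc1a2 start region (chr2:102658495-102659326) held 186 and 186 reads in SST, 189 and 124 in PV, and 140 and 159 in VIP samples, and none of its 3 differences passed the test, with log2 values from 0.12 to 0.38.

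DESeq2's Wald test kept the calls of the Slc1a3 intron between SST and VIP (adjusted p = 0.0139) and of the Slc1a1 start between PV and VIP (0.00199), and no other. It was run on the same filtered regions, so the call of the Slc1a3 intron is again no support for a difference. In all, 1 of 11 regions was called between SST and PV, where 8.29% of the 40338 regions were. Between SST and VIP 4 of 11 were called against 36.3%, and between PV and VIP 2 of 11 against 49.1%. The called share was thus near that of all regions in the first 2 comparisons and below it in the last, so the counts are no result about the transporters. The fit used all 6 samples for 1 estimate of the spread, and with 1 mouse per sample the p-values rest on the spread between 2 mice of each type.

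**Figure D4:**
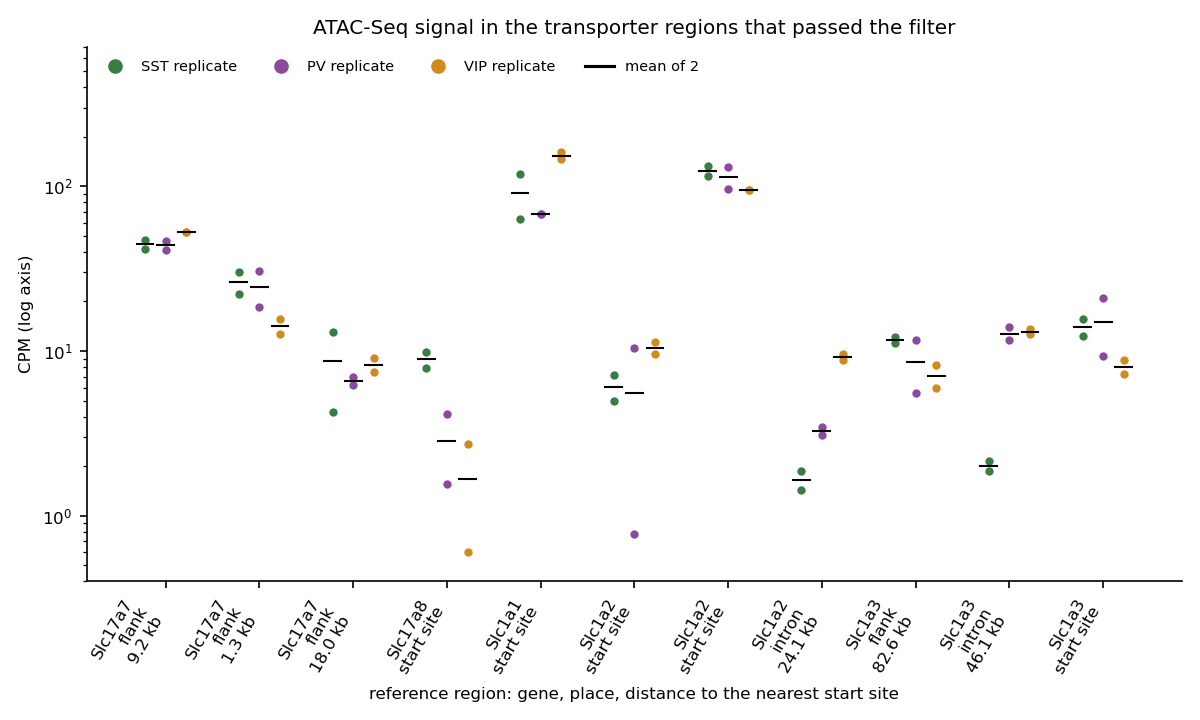
ATAC-Seq signal (CPM, log axis) in the 11 tested regions at transporter genes, named by gene, place and distance to the nearest start site; points are the 2 replicates of SST, PV and VIP nuclei and black bars their mean. The Slc1a1 start site is highest in VIP, the Slc1a3 intron region is lowest in SST (3 reads per sample), and at the main Slc1a2 start region (124 to 189 reads) the 3 cell types overlap or lie close together.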

How the data were processed

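The deposited UMI count tables hold 1 row per inDrops barcode and 1 column per mouse gene or viral construct, and the authors had aligned the reads to GRCm38 with added viral contigs and collapsed UMIs per barcode and gene. No column was normalized, and viral counts include PCR-enriched libraries. The ATAC-Seq files are a table of read counts per reference region, which the authors trimmed with Trimmomatic 0.33, aligned to mm10 with Subread 1.4.6-p3 and counted with featureCounts without duplicates, and peak lists whose −log10 q the authors took from MACS2. A deposited score, the mean phyloP conservation of each region, was not used in any comparison, nor was a table of the authors' own fold values for screened elements. Positions are on mm10 (GRCm38), and gene models are GENCODE vM21.

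Viral columns (1164) were left out of depths. Nuclei held more than 200 UMIs. Gates, pairs and thinning to 300 UMIs follow fixed marker lists, and doublets were not called here. Ratios were counted past 2-fold among genes with at least 50 UMIs over both gates. Free RNA per gate was estimated from markers of other classes, leaving out related classes (oligodendrocyte with OPC, microglia with astrocyte), a restriction set after the data were seen. The estimate was 0 in L5 NP, L6b, VIP, NPY and CNR1 nuclei, where a rare marker had no counts, and says nothing there. The pairs SST with PV and CNR1 with NPY, and the ranking of layers of at least 50 nuclei, were also added after the data were seen, as was recomputing ratios under the alternatives. The transporters, lists and gates were chosen with earlier results of these data known. Named genes are the 6 transporters, up to 5 of the 19 glutamate cycle genes past 2-fold in each comparison (Slc1a6 was added after its value was seen, and 1 further gene of that list is not reported here), and the 5 genes most like each transporter in its levels.

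For ATAC-Seq, all 6 samples entered 1 edgeR 4.0.16 fit in R 4.3.3, with TMM scaling and filterByExpr, and contrasts were called by the quasi-likelihood test at a false discovery rate of 5%. Simulated counts for SST against PV, with 200 of 40338 regions changed 4-fold, gave back 64.5% of them, and 3.01% of 133 calls were false. Each simulated region took its spread from the common trend without scatter around it, and in the data 3344 regions were called. The share of false calls in the data was thus not measured. Alternatives were DESeq2 1.42.0, its size factors in edgeR, no filter, a replicate block and leaving out each replicate. For the nuclei they were other gate limits, more than 500 UMIs, free RNA subtracted, each library set, equal weight of libraries, a denominator without mitochondrial genes and leaving out each library. Intervals cover counting error only. Python 3.11.15 with scipy 1.17.1 gave the intervals.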

Additional observations from a re-analysis of the deposited data

How the results depend on the processing

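The levels of Slc17a6, Slc17a7 and Slc17a8 in their highest class moved by less than 1 SD over libraries under every alternative run. So did Slc1a1 in OPCs, but its SD of 4.61 is about the level itself (4.74), which became 2.93 with at least 90% of class marker UMIs and 6.77 above 500 UMIs. In astrocytes Slc1a2 (157) became 190 with at least 90% of class marker UMIs, 133 above 500 UMIs and 178 with free RNA subtracted. Slc1a3 (65.9) became 78.9, 50.5 and 75.01 under these, and 59.1 with at least 1 marker UMI. Leaving out 1 library gave 0.998 to 1.05 for Slc17a6, 4.48 to 4.56 for Slc17a7, 0.230 to 0.251 for Slc17a8, 3.86 to 5.16 for Slc1a1 in OPCs, 154 to 160 for Slc1a2 and 65.1 to 67.1 for Slc1a3. The highest class was kept in 19 of 19 alternatives for Slc17a6, Slc17a7, Slc1a2 and Slc1a3, in 18 for Slc1a1 and in 16 for Slc17a8. Slc17a8 lost it in each library set alone and with at least 1 marker UMI. The 43 ratios between gates that were recomputed were all at least 2-fold in either direction, so turns were unlikely from the start. Of these only the Slc17a7 ratio of astrocytes to OPCs (2.17, from 3 OPC UMIs) turned. It became 0.977 with at least 90% of class marker UMIs, 0.889 above 500 UMIs and 0.861 in library set 1. Ratios nearer 1 were left out. Among them, Slc17a8 in excitatory nuclei and interneurons was 0.229 and 0.236 in library set 1, the reverse of the pooled order. So was Slc1a3, at 0.389 and 0.409. Of 815 ratio values under the alternatives 69 left their counting interval in the same direction. Among ratios given above, excitatory over interneuron became 8.74 for Slc17a7 and 5.18 for Slc17a6 with at least 1 marker UMI. Slc1a3 became 394 for astrocyte over excitatory and 87.0 for OPC over excitatory with free RNA subtracted, and 18.9 for the latter above 500 UMIs. Slc17a6 in L4 over L6 became 5.82 with at least 1 marker UMI and 18.5 with at least 3, and Slc1a1 in VIP over PV 0.666 in library set 1.

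For ATAC-Seq the called transporter regions (1, 4 and 2 for SST with PV, SST with VIP and PV with VIP) became 0, 1 and 1 with DESeq2's Wald test and 0, 2 and 1 without the filter, when 323369 regions were tested and SST with PV had 0 calls in all. At an unadjusted p under 0.05 edgeR gave 2, 5 and 3. Leaving out 1 replicate gave 0 to 2, 2 to 7 and 1 to 4. The cause of these changes was not tested beyond the number of regions and samples. The replicate numbers share no stated animal or day, and same-numbered samples deviated with r of 0.023, 0.03 and −0.037. With the replicate block the counts were 1, 4 and 1, and over all regions 2557, 13993 and 19159 in place of 3344, 14633 and 19824. Of the 101 regions at transporter genes 90 had too few reads to test, and of all 323369 regions 40338 passed the filter. Why the other regions held few reads was not tested.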

Other observations

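In the astrocyte gate 1242 nuclei held a Slc1a3 UMI and 366 did not, at median depths of 364 and 377 UMIs. Slc1a2 was 194 UMIs per 10000 in the first and 33.2 in the second, a ratio of 5.84 (exact interval 5.41–6.32, counting error only). A nucleus in the astrocyte gate without Slc1a3 thus held less Slc1a2 at about the same depth. One astrocyte nucleus held 155 Slc1a2 UMIs, the most in any gate.

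Excitatory nuclei with a Slc17a6 UMI (1118) held Slc1a1 at 1.05 UMIs per 10000, against 1.61 in the 11578 without, a ratio of 0.651 (0.549–0.767). Slc17a7 was 4.09 and 4.57 in the same nuclei (ratio 0.895, 0.822–0.973), and Slc1a2 was 12.1 and 12.0. Within the L4 gate the Slc1a1 ratio was 0.913 (0.501–1.58), from 17 UMIs in the nuclei with Slc17a6.

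Slc1a1 RNA and its start region stood in opposite orders in 2 interneuron types. VIP nuclei of V1 held less Slc1a1 RNA than PV nuclei (1.22 and 2.77 UMIs per 10000), and VIP samples of whole cortex held more reads at the start region than PV samples (236 and 243 against 97 and 88). The tissue, the animals and the way the types were defined differ between these measurements, so no test joins them.

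In vascular nuclei Glul reached 21.7 UMIs per 10000, 21.6 times (20.1–23.2) the excitatory level, where Slc1a2 was 7.67 and Slc1a3 1.15. Astrocytes held Glul at 27.2. Most of the list of 19 did not go with Glul. Between vascular and excitatory nuclei 17 were tested, with 4 at least 2-fold higher and 9 lower in vascular nuclei. Of all genes 18.8% were higher and 40.8% lower. The median log2 ratio was −1.18 for the list against −0.54 over all genes.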
